A study of Mus musculus with 16 samples.

Results

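Glutathione and Nrf2 detoxification genes were followed in cultured pancreatic cancer cells that carried a guide against Sin3B or a control guide, with and without interferon gamma (IFNγ), a cytokine of T and natural killer cells. The 10 genes were Gpx2, Gsta3, Gsta4, Gstm1, Nqo1, Hmox1, Gclc, Gclm, Txnrd1 and Nfe2l2, found by their gene name among the 56980 features of the IFNγ table and the 55738 features of the untreated table. They were selected on these same contrasts (their fall with IFNγ in each genotype and their genotype difference in each experiment). Their values are therefore given as a description, without p-values, and how many passed a threshold is given once, beside the share of all genes. Tests are reported for the other genes of the pathway, whose lists were also chosen with earlier results of these data known.

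The cells were KPC1199, a murine pancreatic ductal adenocarcinoma line from the KPC model, in which Pdx-cre switches on tumour-driving alleles in the pancreas. Every group carried these alleles and a lentiviral CRISPR-Cas9 vector under puromycin selection, with either a control guide (sgCtrL, labelled WT, described in the study's methods as non-targeting) or a single guide against Sin3B (Sin3Bsg1, labelled Sin3B Knockout), so a change particular to that guide cannot be told apart from the loss of Sin3B. Whether the cells were a pool or a clone was not given in the sources used here. In the IFNγ experiment, sgCtrL and Sin3Bsg1 cells were left without IFNγ or given 10 ng/ml IFNγ for 24 h, with 3 libraries in each of the 4 groups. In a separate untreated experiment, sgCtrL and Sin3Bsg1 cells had 2 libraries each. The comparisons within the IFNγ experiment share libraries, so their values are set side by side. The labels do not say whether replicates were separate cultures, and the study's general statement on independent experiments does not name these libraries, so errors and p-values measure only the spread between libraries, which may be technical.

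Glutathione is a tripeptide that reduces peroxides and is attached to reactive compounds before their export. Its synthesis starts at glutamate-cysteine ligase, glutathione peroxidases and S-transferases use it, and the thioredoxin system is the parallel reducing route. Many genes of both systems carry antioxidant response elements, which are bound by the transcription factor Nrf2 (encoded by Nfe2l2) with a small Maf protein; Keap1 sends Nrf2 to degradation and Bach1 competes for the same elements. Pancreatic tumour cells are known to use this programme to tolerate oxidative stress.

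Libraries held 18128055 to 27056903 counts in the IFNγ experiment and 29683181 to 32311721 in the untreated experiment. Sin3b itself, the target of the guide, lay between 80.3 and 95.5 CPM (counts scaled to the library total) in the 6 sgCtrL libraries and between 33.6 and 39.4 CPM in the 6 Sin3Bsg1 libraries of the IFNγ experiment. In the untreated experiment it lay between 83.3 and 88.5 CPM in sgCtrL and between 34.1 and 36.5 CPM in Sin3Bsg1. Its transcript thus remained in every Sin3Bsg1 library at a lower level. All 7 epithelial markers (Epcam, Cdh1, Krt7, Krt8, Krt18, Krt19, Sox9) were measured, whereas none of the 7 immune markers exceeded 3 counts in any library, and Cd3e and Adgre1 were at 0 in every library. The sgCtrL library of replicate 1 with IFNγ stood apart from its group: its mean chi-square per gene against the other 2 was 18.2 and 22.0, against 2.47 to 9.22 for the other 10 pairs within groups. For part of the values that rest on it, the value without it is also given. The others include it.

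The level of each gene relative to the others was compared in TPM, a scale that corrects counts for gene length and library total. In sgCtrL cells without IFNγ, Gstm1, a mu-class glutathione S-transferase, had the highest level at 797 TPM ± 6.05 (SD, n = 3). Gsta4, an alpha-class transferase that conjugates reactive lipid aldehydes, followed at 313 TPM ± 10.8. The modifier subunit Gclm stood at 215 TPM ± 3.77, the catalytic subunit Gclc at 191 TPM ± 6.40 and Nfe2l2 at 185 TPM ± 3.49. Gclc and Nfe2l2 overlapped between libraries, and the other neighbours in this order did not. Below them were Hmox1 (haem oxygenase 1) at 165 TPM ± 6.87 and Txnrd1 (cytosolic thioredoxin reductase) at 121 TPM ± 2.84. Gpx2, a peroxidase of the digestive epithelium, reached 28.8 TPM ± 2.72, and the alpha-class transferase Gsta3 11.98 TPM ± 1.49. Nqo1, a quinone reductase and well-known Nrf2 target, was lowest at 0.449 TPM ± 0.319.

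The order was not fixed. Gclc stood above Gclm in Sin3Bsg1 cells without IFNγ (208 against 189 TPM) and lay with it in untreated Sin3Bsg1 cells, where their libraries overlapped. Gsta3 (10.2 TPM ± 0.295, SD, n = 2) stood above Gpx2 (7.56 TPM ± 1.15) in untreated Sin3Bsg1 cells. Gstm1 and Gsta4 held the first and second places in each of the 6 groups, although Gsta4 and Gclm overlapped in sgCtrL cells with IFNγ. Levels of the 2 experiments were normalised apart, so they are set side by side and not tested against each other.

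**Figure D1:**
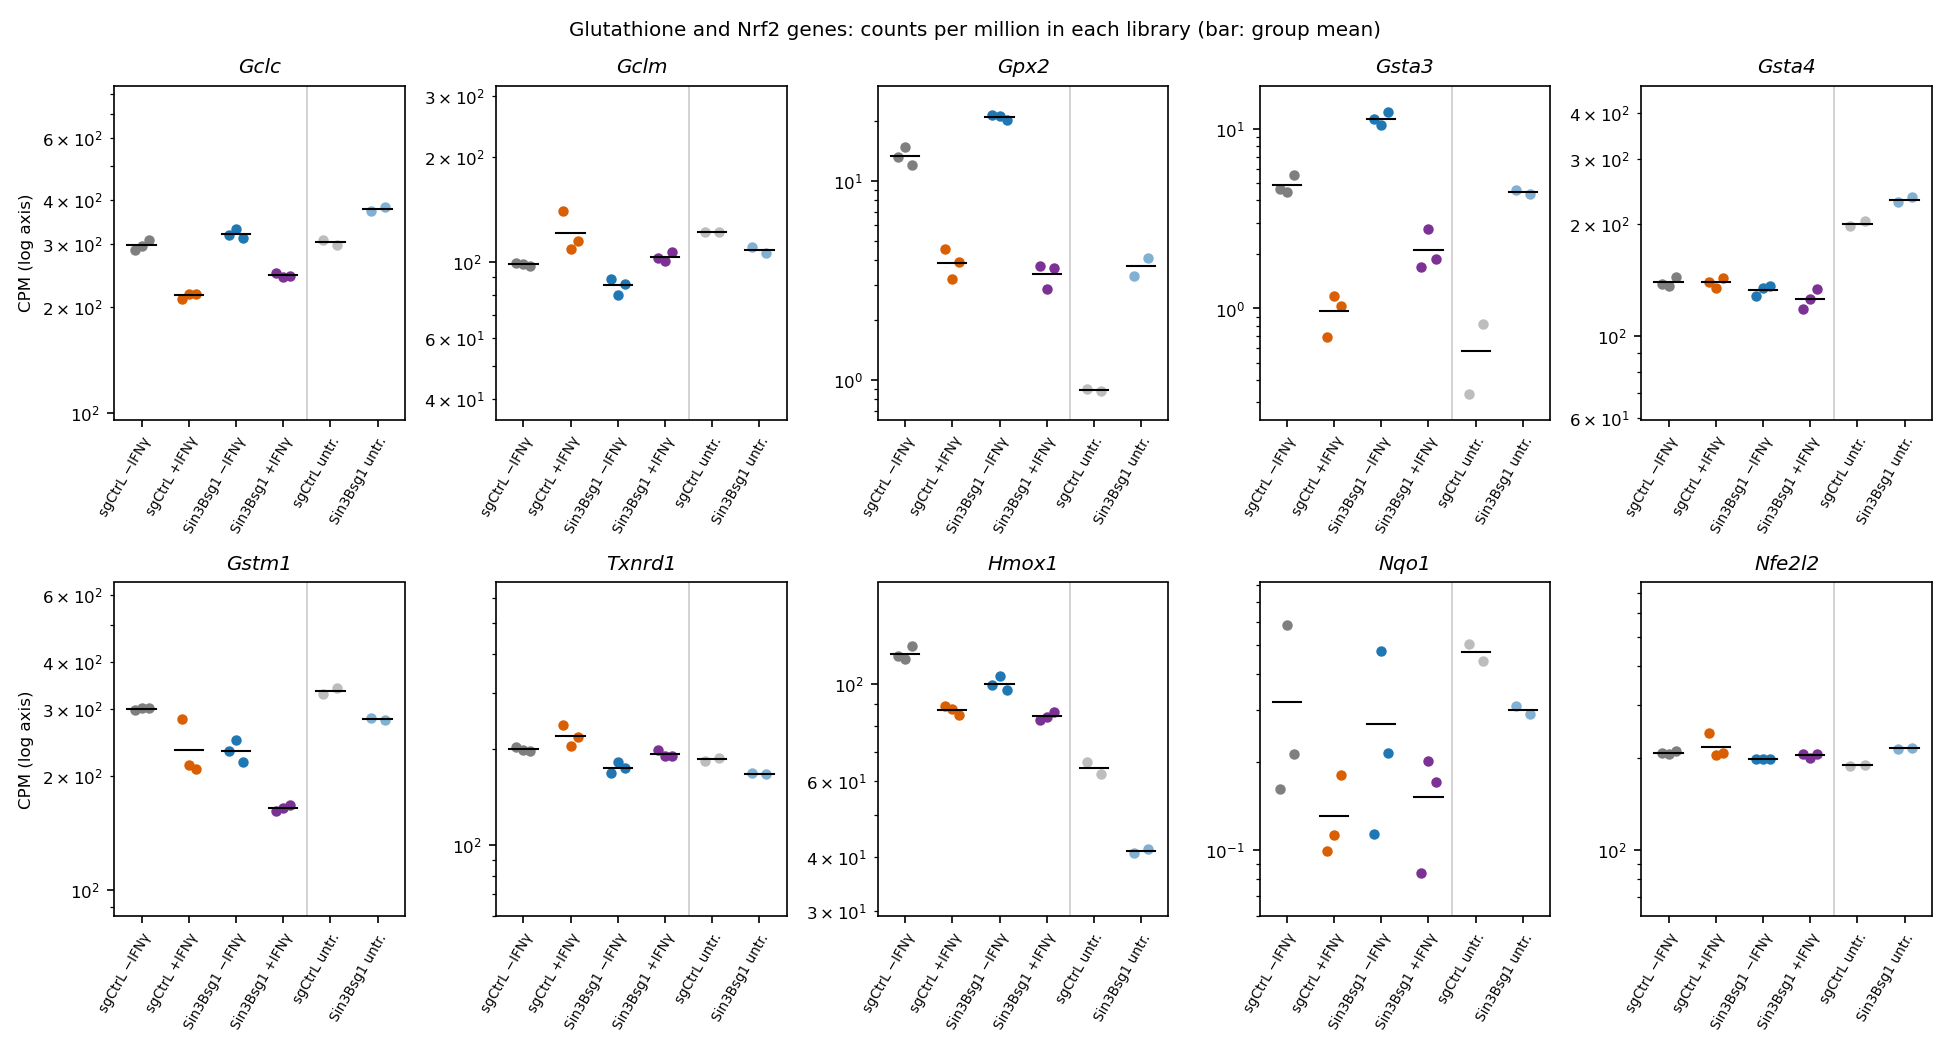
CPM of each gene in each of the 16 libraries on a log axis, 1 panel per gene; points are libraries, bars are group means, and the grey line separates the 2 experiments. Gpx2 and Gsta3 span the widest range, Nfe2l2 lies between 189 and 242 CPM throughout, and Nqo1 stays under 1 CPM.

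Gpx2, which lies on chromosome 12 (GRCm39 chr12:76839107-76842326, minus strand), had a lower level with IFNγ in every library. In sgCtrL cells it measured 13.1, 14.7 and 12.02 CPM without IFNγ and 4.52, 3.21 and 3.92 CPM with it. In Sin3Bsg1 cells it measured 21.3, 21.2 and 20.2 CPM without IFNγ and 3.72, 2.86 and 3.65 CPM with it. All libraries with IFNγ lay below all libraries without it in both genotypes, and the 2 genotypes overlapped only once IFNγ was present. The log2 fold change with IFNγ was -1.79 (SE 0.13) in sgCtrL, a 3.46-fold lower level, and -2.62 (SE 0.13) in Sin3Bsg1, a 6.14-fold lower level. Without the sgCtrL library that stood apart, the value in sgCtrL was -1.92. The difference between these values, Sin3Bsg1 minus sgCtrL, was -0.83 (SE 0.18) on the log2 scale and -0.70 without that library.

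The genotype difference of Gpx2 followed from the same values. Without IFNγ, Sin3Bsg1 cells were 1.57-fold higher (log2 0.65, SE 0.11). With IFNγ, the log2 difference was -0.18 (SE 0.15), and -0.04 without the sgCtrL library that stood apart. In the untreated experiment, Gpx2 measured 0.907 and 0.884 CPM in sgCtrL and 3.33 and 4.11 CPM in Sin3Bsg1, a 4.14-fold higher level in Sin3Bsg1 (log2 2.05, SE 0.26). The direction without IFNγ was thus the same in both experiments, at levels that differed between them. Gpx2 shares 5.97% of the 50-base stretches of its transcripts with the pseudogene Gpx2-ps1, and how such reads were assigned is not given in the sources used here.

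Gsta3 (GRCm39 chr1:21310806-21335885, plus strand) was also lower with IFNγ, and the genotypes differed in both conditions. In sgCtrL cells it measured 4.63, 4.46 and 5.56 CPM without IFNγ and 0.696, 1.17 and 1.04 CPM with it, which were 14, 31 and 23 counts. In Sin3Bsg1 cells it measured 11.3, 10.5 and 12.4 CPM without IFNγ and 1.71, 2.78 and 1.89 CPM with it. No library with IFNγ reached any library of its genotype without it, and Sin3Bsg1 lay above sgCtrL on both sides. With IFNγ its log2 fold change was -2.30 (SE 0.22) in sgCtrL and -2.41 (SE 0.18) in Sin3Bsg1, which are 4.94-fold and 5.33-fold lower levels. The log2 fold changes differed by -0.11 (SE 0.31) between genotypes, and by -0.28 without the sgCtrL library that stood apart. Sin3Bsg1 was 2.34-fold higher without IFNγ (log2 1.22, SE 0.17) and 2.17-fold higher with it (log2 1.11, SE 0.24; 0.96 without that library). Untreated cells had 0.336 and 0.816 CPM of Gsta3 in sgCtrL (10 and 24 counts) and 4.54 and 4.34 CPM in Sin3Bsg1, a log2 difference of 2.94 (SE 0.31). This value rested on few counts in sgCtrL: it was 3.71 without sgCtrL replicate 2 and 2.44 without replicate 1.

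The promoters of Gpx2 and Gsta3, the pair with the largest fold changes with IFNγ, are shown beside those of Gclm and Txnrd1, which were higher with it. Each window runs from 250 bases before to 50 bases after the annotated start of transcription, as RefSeq gives it on GRCm38.p6, 5′ to 3′ on the gene's strand. Capitals mark matches to the core of the antioxidant response element (TGACNNNGC) or to the interferon-gamma-activated site (TTCNNNGAA, which reads the same on both strands), searched on both strands. No matches of the 2 motifs overlapped in these windows.
Gpx2, chr12:76795505-76795804, minus strand: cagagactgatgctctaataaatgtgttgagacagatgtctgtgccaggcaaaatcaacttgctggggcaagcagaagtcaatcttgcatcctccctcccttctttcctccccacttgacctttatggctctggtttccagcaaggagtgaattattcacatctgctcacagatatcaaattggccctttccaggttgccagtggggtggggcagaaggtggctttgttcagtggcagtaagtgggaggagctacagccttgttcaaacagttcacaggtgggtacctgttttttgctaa
Gsta3, chr1:21240335-21240634, plus strand: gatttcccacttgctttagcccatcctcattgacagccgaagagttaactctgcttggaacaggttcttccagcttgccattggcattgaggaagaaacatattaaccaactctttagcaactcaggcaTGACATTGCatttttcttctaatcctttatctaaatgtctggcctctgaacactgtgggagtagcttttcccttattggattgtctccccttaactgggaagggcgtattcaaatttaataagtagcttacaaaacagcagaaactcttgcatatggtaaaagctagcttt
Gclm, chr3:122245307-122245606, plus strand: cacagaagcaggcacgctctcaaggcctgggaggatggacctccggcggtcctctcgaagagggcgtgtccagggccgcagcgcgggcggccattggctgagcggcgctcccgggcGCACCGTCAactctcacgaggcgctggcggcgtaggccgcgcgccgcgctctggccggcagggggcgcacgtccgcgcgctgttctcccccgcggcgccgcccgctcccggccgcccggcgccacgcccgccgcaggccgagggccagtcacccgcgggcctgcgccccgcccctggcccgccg
Txnrd1, chr10:82858956-82859255, plus strand: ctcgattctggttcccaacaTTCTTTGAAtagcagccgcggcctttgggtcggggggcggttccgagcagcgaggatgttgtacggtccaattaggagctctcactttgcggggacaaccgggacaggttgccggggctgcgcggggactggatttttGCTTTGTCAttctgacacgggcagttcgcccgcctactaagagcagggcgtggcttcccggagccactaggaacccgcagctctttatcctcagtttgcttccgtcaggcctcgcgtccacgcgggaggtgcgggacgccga

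The Gpx2 window held neither motif. The Gsta3 window held 1 antioxidant core, TGACATTGC, starting 121 bases before the start, and the Gclm window held 1 on the opposite strand (GCACCGTCA as printed), 134 bases before it. The Txnrd1 window held 1 antioxidant core on the opposite strand (GCTTTGTCA as printed), 92 bases before the start, and 1 interferon site (TTCTTTGAA) 230 bases before it. Windows were given for 7 of the 10 genes and 10 starts, and not for Gsta4, Hmox1 and Gclc. Of those 7 genes, 4 held an antioxidant core (Gsta3, Gclm, Txnrd1, Nfe2l2) and 1 held an interferon site (Txnrd1, in 2 of its 3 windows). Over all 32851 windows of this length, 12.4% held the antioxidant core and 8.30% the interferon site, and of the 27025 genes with a window 14.0% and 9.55% did. A match describes these letters only. Of the genes lower with IFNγ that had a window, Gsta3 held the core, and Gpx2 and Gstm1 (in 2 windows) did not.

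Glutamate-cysteine ligase catalyses the first step of glutathione synthesis, and its 2 subunits lay on opposite sides: Gclc was lower and Gclm higher with IFNγ. Gclc measured 289, 297 and 309 CPM in sgCtrL without IFNγ and 210, 217 and 217 CPM with it. In Sin3Bsg1 it measured 318, 332 and 313 CPM without IFNγ and 249, 243 and 245 CPM with it. The 4 groups did not overlap, with Sin3Bsg1 above sgCtrL and IFNγ below its absence. Its log2 fold change with IFNγ was -0.47 (SE 0.04) in sgCtrL and -0.39 (SE 0.04) in Sin3Bsg1, and the difference between the genotypes was 0.11 (SE 0.04) without and 0.19 (SE 0.04) with IFNγ. Untreated cells had 309 and 299 CPM in sgCtrL and 372 and 383 CPM in Sin3Bsg1, a 1.24-fold higher level (log2 0.31, SE 0.02).

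Gclm, which raises the affinity of the enzyme for glutamate, measured 99.3, 98.4 and 96.8 CPM in sgCtrL without IFNγ and 140, 109 and 114 CPM with it. In Sin3Bsg1 it measured 89.2, 80.3 and 86.4 CPM without IFNγ and 102, 100 and 106 CPM with it. Both genotypes were higher with IFNγ in every library, and Sin3Bsg1 was the lower genotype in both conditions. On the log2 scale the change with IFNγ was 0.30 (SE 0.07) in sgCtrL, or 0.18 without the library that stood apart, and 0.27 (SE 0.07) in Sin3Bsg1. The genotype difference was -0.20 (SE 0.07) without IFNγ and -0.23 (SE 0.07) with it, the latter -0.10 without that library. Untreated cells had 121 and 121 CPM in sgCtrL and 110 and 106 CPM in Sin3Bsg1 (log2 -0.17, SE 0.03). Gclm shares 7.75% of its 50-base stretches with other annotated genes, among them Ppia, and its level is uncertain to that extent.

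The ratio of Gclc to Gclm in TPM, taken within each library, joins these values. It was 0.890 ± 0.0412 (SD, n = 3) in sgCtrL without IFNγ and 0.527 ± 0.0760 with it. In sgCtrL with IFNγ, the library that stood apart had a ratio of 0.441, and the others had 0.584 and 0.556. In Sin3Bsg1 it was 1.11 ± 0.0908 without IFNγ and 0.698 ± 0.0215 with it. The libraries of the 4 groups did not overlap: the ratio was lower with IFNγ in both genotypes, and Sin3Bsg1 stood above sgCtrL under both conditions. Untreated cells gave 0.746 and 0.720 in sgCtrL and 0.987 and 1.06 in Sin3Bsg1, in the same order.

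**Figure D2:**
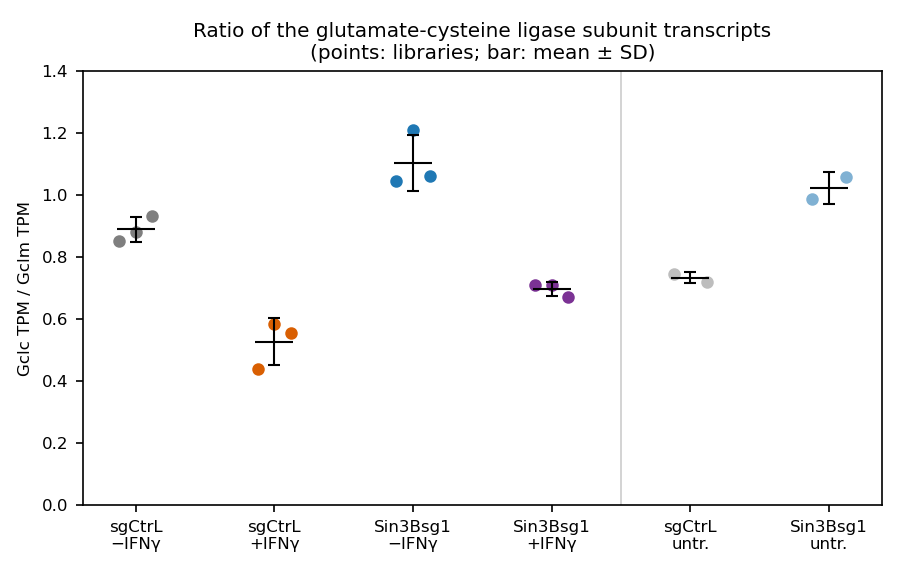
Ratio of Gclc to Gclm (TPM over TPM) by group; points are libraries and bars show the mean with the SD (n = 3 in the IFNγ experiment, n = 2 in the untreated experiment). The ratio lies between 0.441 and 0.584 in sgCtrL with IFNγ and between 1.04 and 1.21 in Sin3Bsg1 without it.

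The other transferases had smaller fold changes than Gsta3. Gstm1, the most abundant of the 10 genes, measured 299, 302 and 302 CPM in sgCtrL without IFNγ and 282, 213 and 209 CPM with it. In Sin3Bsg1 it measured 233, 248 and 218 CPM without IFNγ and 162, 164 and 167 CPM with it. Levels were lower with IFNγ in each genotype and lower in Sin3Bsg1 in each condition, and 1 sgCtrL library with IFNγ (282 CPM) lay far above the other 2 of its group. Its change with IFNγ was -0.36 (SE 0.09) on the log2 scale in sgCtrL, or -0.52 without that library, and -0.50 (SE 0.09) in Sin3Bsg1. The genotype difference was -0.37 (SE 0.09) without IFNγ and -0.51 (SE 0.09) with it, the latter -0.35 without that library. It was 330 and 341 CPM in sgCtrL and 284 and 281 CPM in Sin3Bsg1 in the untreated experiment (log2 -0.25, SE 0.02). Gstm1 shares 9.00% of its 50-base stretches with other genes, Gstm2-ps1 and Gstm3 among them, and is uncertain to that extent.

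Gsta4 had smaller differences between the groups of the IFNγ experiment than Gstm1. It ranged from 136 to 144 CPM in sgCtrL without IFNγ and from 135 to 144 CPM with it, and from 128 to 136 CPM and 118 to 134 CPM in Sin3Bsg1. Its log2 fold change with IFNγ was -0.0008 (SE 0.05) in sgCtrL and -0.08 (SE 0.05) in Sin3Bsg1, with overlapping libraries in both. With library totals alone these were -0.069 and -0.16. The log2 difference of Sin3Bsg1 from sgCtrL was -0.068 (SE 0.05) without IFNγ and -0.14 (SE 0.05) with it. Between the untreated groups the order was the other way, with 198 and 204 CPM in sgCtrL and 229 and 237 CPM in Sin3Bsg1 (log2 0.22, SE 0.03).

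Txnrd1, which passes electrons from NADPH to thioredoxin, measured 204, 199 and 198 CPM in sgCtrL without IFNγ and 239, 205 and 219 CPM with it. In Sin3Bsg1 it measured 169, 183 and 174 CPM without IFNγ and 199, 191 and 191 CPM with it. Levels with IFNγ lay above those without it in both genotypes, by a log2 value of 0.14 (SE 0.05) in each, and 0.07 in sgCtrL without the library that stood apart. With library totals alone the log2 values were 0.071 in sgCtrL and 0.058 in Sin3Bsg1. Sin3Bsg1 was lower by a log2 value of -0.19 (SE 0.05) in both conditions; with IFNγ this became -0.12 without that library. Untreated cells had 184 and 188 CPM in sgCtrL and 168 and 167 CPM in Sin3Bsg1 (log2 -0.15, SE 0.03).

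Hmox1, which breaks haem down to biliverdin, iron and carbon monoxide, measured 116, 115 and 123 CPM in sgCtrL without IFNγ and 88.9, 87.9 and 85.2 CPM with it. In Sin3Bsg1 it measured 99.6, 105 and 97.1 CPM without IFNγ and 82.7, 84.1 and 86.5 CPM with it. IFNγ gave the lower values in both genotypes, and the genotypes overlapped only with IFNγ. Its log2 fold change was -0.43 (SE 0.05) in sgCtrL and -0.25 (SE 0.05) in Sin3Bsg1, and their difference was 0.18 (SE 0.07). Sin3Bsg1 was lower by a log2 value of -0.23 (SE 0.05) without IFNγ and -0.05 (SE 0.05) with it. Untreated cells had 66.3 and 62.2 CPM in sgCtrL and 40.9 and 41.8 CPM in Sin3Bsg1, a 1.55-fold lower level (log2 -0.64, SE 0.05).

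Nqo1 was near the limit of detection. Its counts were 3, 14 and 4 in sgCtrL without IFNγ, 2, 3 and 4 with IFNγ, 3, 11 and 5 in Sin3Bsg1 without it and 2, 5 and 4 with it. It therefore did not pass the filter on low counts in the IFNγ experiment, and no fold change is given there. It passed in the untreated experiment with 15 and 13 counts in sgCtrL and 10 and 9 in Sin3Bsg1 (log2 -0.64, SE 0.54). A change of Nqo1 was not detectable at this depth.

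Nfe2l2, the gene of Nrf2, varied little. It measured 208, 207 and 211 CPM in sgCtrL without IFNγ and 242, 204 and 207 CPM with it, and 199, 199 and 199 CPM in Sin3Bsg1 without IFNγ and 207, 200 and 206 CPM with it. The libraries overlapped in sgCtrL and those with IFNγ lay slightly above in Sin3Bsg1. On the log2 scale the change with IFNγ was 0.06 (SE 0.06) in sgCtrL, or -0.03 without the library that stood apart, and 0.04 (SE 0.06) in Sin3Bsg1. When library totals alone set the scale, these were -0.01 and -0.05, so no direction is given. Between genotypes the difference was -0.068 (SE 0.06) without IFNγ and -0.09 (SE 0.06) with it, the latter 0.002 without that library. Untreated cells had 189 and 190 CPM in sgCtrL and 214 and 216 CPM in Sin3Bsg1 (log2 0.19, SE 0.03). Nrf2 is mainly regulated as a protein, by degradation, which was not measured here.

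**Figure D3:**
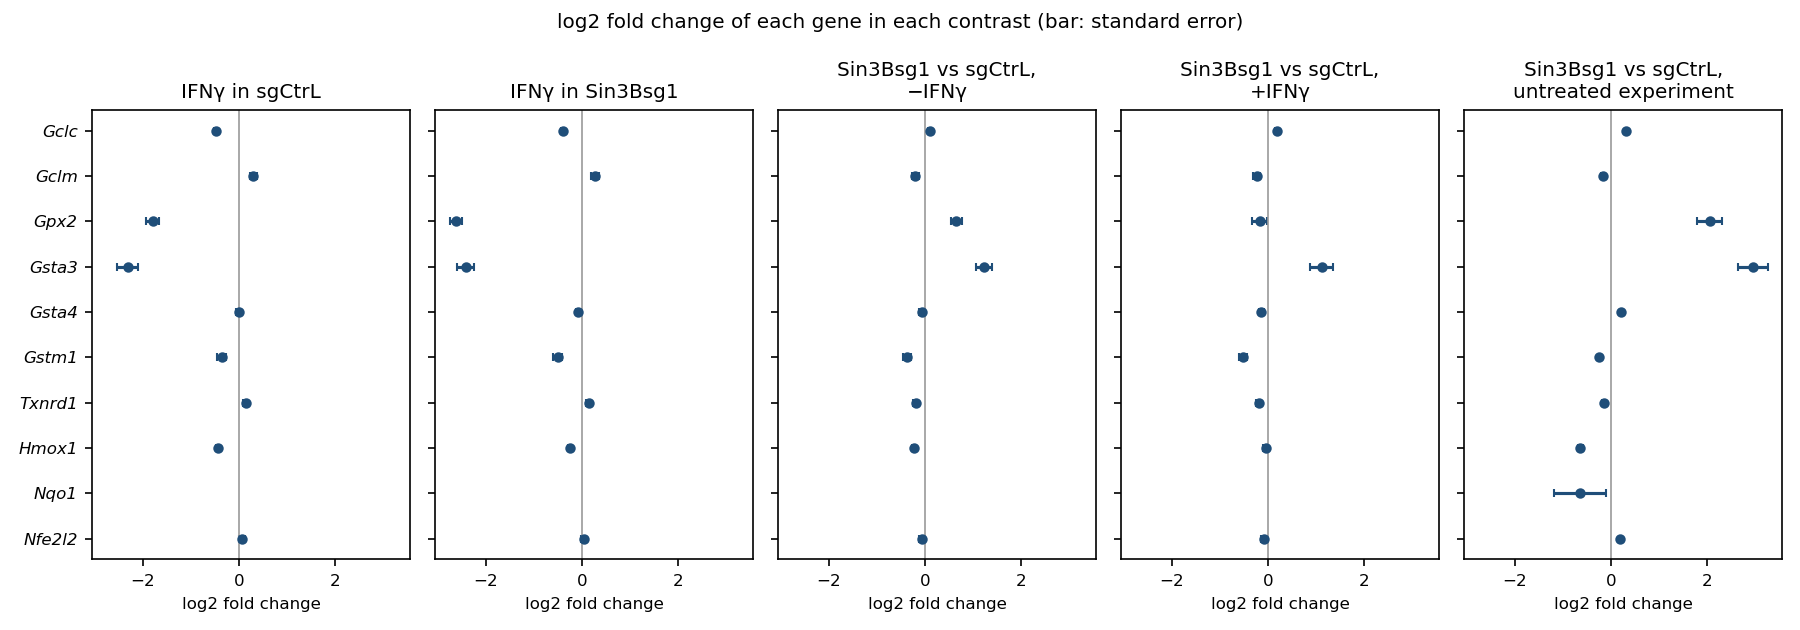
The log2 fold change (horizontal axis, bars ± SE) of each gene in 5 contrasts, 1 panel each; Nqo1 has a value only in the untreated experiment. Gpx2 and Gsta3 lie between -1.79 and -2.62 with IFNγ, whereas Gclm and Txnrd1 lie between 0.14 and 0.30 and Gsta4 and Nfe2l2 within 0.08 of 0 in the panels for IFNγ.

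Gpx2, Gsta3, Gstm1, Hmox1 and Gclc had lower levels with IFNγ, with no overlap between libraries in either genotype. Of the 97 other pathway genes tested, 34 lay below without overlap in sgCtrL and 28 in Sin3Bsg1. With 3 libraries per group such an order is not rare, and the share over all genes is not given. With edgeR, 9 of the 10 passed the filter on low counts in the IFNγ experiment. With IFNγ, 5 of these were below the adjusted threshold of 0.05 as lower and 1 as higher in sgCtrL, where 14.5% and 15.7% of all 14913 genes tested were. In Sin3Bsg1 the counts were also 5 and 1, where 12.3% and 16.1% of all genes were. For Sin3Bsg1 against sgCtrL, 2 were higher and 3 lower without IFNγ (7.89% and 9.33% of all genes), and 2 higher and 3 lower with IFNγ (8.62% and 7.90%). In the untreated experiment, 5 of 10 were higher and 4 lower (15.1% and 16% of 14589 genes). For the interaction of the guide with IFNγ, 0 of 9 passed, where 0.0805% of all genes were higher and 0.0335% lower. The genes were selected on these contrasts, so nothing is read from these counts.

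The genes whose pattern over the 12 libraries of the IFNγ experiment was most like that of Gpx2 were sought among 10502 genes by the root-mean-square difference of centred log2 CPM. They included Lgr5 (0.323), Abca8a (0.383), Abca6 (0.388) and Olfm4 (0.427). Lgr5, a receptor for R-spondins and a stem cell marker of the gut, averaged 11.6 CPM in sgCtrL and 17.1 CPM in Sin3Bsg1 without IFNγ, and 4.60 and 4.21 CPM with it. Olfm4, a secreted glycoprotein of the gut epithelium, averaged 39.7 and 82.0 CPM without IFNγ and 9.90 and 17.7 CPM with it. Its mean with IFNγ was higher in Sin3Bsg1, unlike that of Gpx2.

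The other genes of the pathway were taken as 109 genes in 8 lists, of which 97 could be tested in the IFNγ experiment and 98 in the untreated one. With IFNγ in sgCtrL, 16 of 97 rose (16.5%) and 30 fell (30.9%), against 15.7% and 14.5% of all genes tested. With library totals alone as the scale the counts were 11 and 36, and the share of higher genes among all calls in the whole table went from 52.0% to 34.7%. The median log2 fold change of the 97 genes was -0.071, that of all genes tested -0.0006. In Sin3Bsg1, 18 rose (18.6%) and 22 fell (22.7%), or 14 and 28 with library totals alone, and the higher share of all calls went from 56.6% to 33.6%. Their median was -0.017 against 0.0052 over all genes.

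The most falls of any list were in the list of oxidoreductases, conjugating enzymes and exporters in sgCtrL: 12 of 21 tested fell and 2 rose there, and 10 fell and 3 rose in Sin3Bsg1. Aldh3a1, an aldehyde dehydrogenase, fell from 122 CPM ± 7.59 to 47.3 ± 4.45 in sgCtrL (n = 3 each; log2 -1.37, SE 0.07, edgeR adjusted p = 1.13e-10) and from 139 ± 6.40 to 50.2 ± 0.676 in Sin3Bsg1 (log2 -1.47, adjusted p = 3.55e-11). Glutathione S-transferases were mixed, with 5 of 17 lower and 2 higher in sgCtrL and 3 in each direction in Sin3Bsg1. Gsta1, an alpha-class relative of Gsta3, fell by 1.08 on the log2 scale in sgCtrL (edgeR adjusted p = 1.31e-06) and by 0.92 in Sin3Bsg1 (adjusted p = 8.02e-06). Mgst1, a membrane-bound transferase, rose from 137 to 210.1 CPM in sgCtrL (log2 0.61, edgeR adjusted p = 4.85e-08) and from 126 to 219 CPM in Sin3Bsg1 (log2 0.80, adjusted p = 1.50e-09).

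The list of glutathione synthesis, recycling and cystine supply included the largest rises: 5 of 15 rose and 2 fell in sgCtrL, 5 rose and 1 fell in Sin3Bsg1. Ggct, which acts on gamma-glutamyl compounds released from glutathione, rose from 4.69 CPM ± 0.400 to 16.6 ± 1.15 in sgCtrL (log2 1.82, SE 0.11, edgeR adjusted p = 2.21e-09) and from 4.70 to 19.95 in Sin3Bsg1 (log2 2.08, adjusted p = 2.06e-10). Chac1, which degrades glutathione, rose by a log2 value of 1.72 (SE 0.20, edgeR adjusted p = 8.19e-06) in sgCtrL and 2.13 (adjusted p = 2.76e-07) in Sin3Bsg1. Slc7a11, the cystine carrier subunit of the exchanger that feeds glutathione synthesis, fell in sgCtrL from 100.0 to 86.5 CPM (log2 -0.21, edgeR adjusted p = 0.00665) and had -0.12 (adjusted p = 0.110) in Sin3Bsg1.

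In the haem and iron list, 3 of 8 fell and 1 rose in sgCtrL and 4 fell and 1 rose in Sin3Bsg1. Slc40a1, the iron exporter ferroportin, fell from 104 CPM ± 2.32 to 54.5 ± 3.46 in sgCtrL (log2 -0.93, edgeR adjusted p = 8.24e-08) and from 62.7 to 28.9 in Sin3Bsg1 (log2 -1.12, adjusted p = 1.35e-08). Fewer genes passed among peroxidases and peroxiredoxins (1 higher and 2 lower of 10 in sgCtrL, 1 and 1 in Sin3Bsg1). Of the NADPH-generating enzymes 2 of 6 fell in both genotypes, and of the thioredoxin list 2 of 7 rose in both.

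Among Nrf2 regulators and partners, 3 of 13 rose and 4 fell in sgCtrL, and 3 rose and 1 fell in Sin3Bsg1. Mafk, a small Maf partner of Nrf2 and Bach1, rose from 29.0 to 59.0 CPM in sgCtrL (log2 1.02, SE 0.07, edgeR adjusted p = 9.55e-09) and from 28.9 to 58.6 CPM in Sin3Bsg1 (adjusted p = 7.76e-09). Keap1 rose from 71.4 to 91.3 CPM in sgCtrL (log2 0.35, edgeR adjusted p = 0.000153) and from 71.6 to 93.6 CPM in Sin3Bsg1 (log2 0.39, adjusted p = 5.63e-05). Mafg fell by 0.21 in sgCtrL (edgeR adjusted p = 0.00279) and by 0.15 in Sin3Bsg1 (adjusted p = 0.0255) on the log2 scale, the latter call lost without any one Sin3Bsg1 library without IFNγ or replicate 2 with it (adjusted p up to 0.0867). Bach1 fell by 0.17 (edgeR adjusted p = 0.0352) and Sqstm1, which binds Keap1, by 0.12 (adjusted p = 0.0202) in sgCtrL. The call of Bach1 was lost without any one sgCtrL library without IFNγ or the library that stood apart (edgeR adjusted p up to 0.101), and that of Sqstm1 without sgCtrL replicate 2 or 3 without IFNγ (up to 0.0768). In Sin3Bsg1 they had log2 values of -0.02 (edgeR adjusted p = 0.871) and -0.01 (adjusted p = 0.880).

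**Figure D4:**
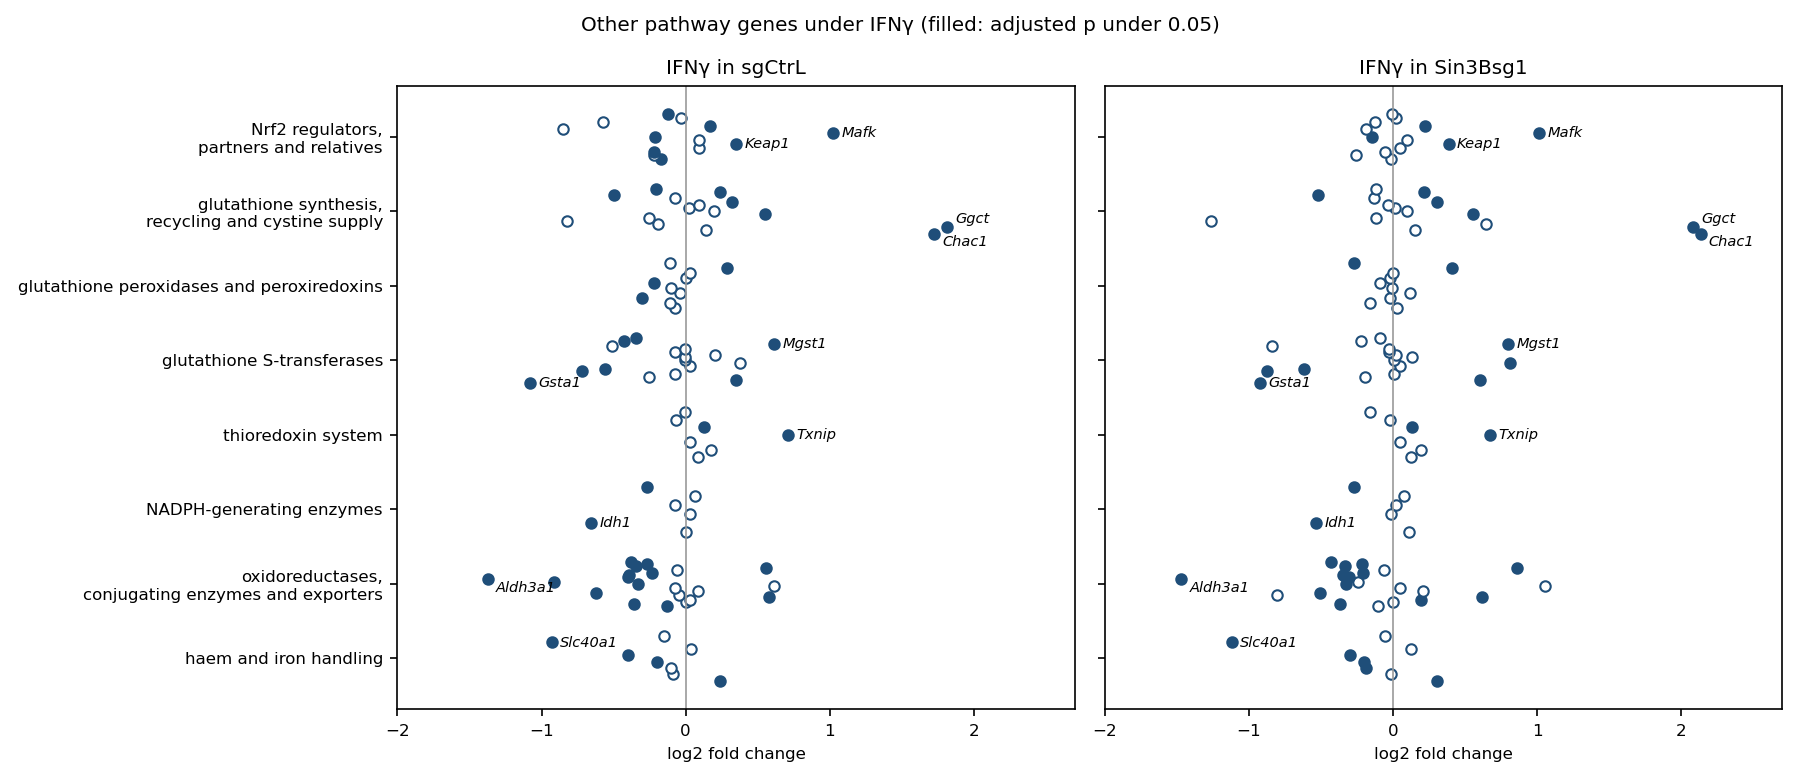
The log2 fold change with IFNγ of the 97 other pathway genes tested, by list, in sgCtrL (left) and Sin3Bsg1 (right); filled points had an edgeR adjusted p under 0.05, open points did not. Ggct and Chac1 lie farthest to the right in both panels, and Aldh3a1 farthest to the left.

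The interaction of the guide with IFNγ tests whether the response to IFNγ differed between genotypes. With edgeR, 0 of 97 pathway genes passed the threshold, 5 had an unadjusted p under 0.05, and DESeq2 called 0 of 105, 5 with an unadjusted p under 0.05. Of all 14913 genes, 17 were called. Keap1 had an interaction of 0.03 (SE 0.08) and Bach1 of 0.15 (SE 0.08), with edgeR adjusted p of 0.994 and 0.927. Mafg had 0.06 (edgeR adjusted p = 0.984) and Sqstm1 0.11 (adjusted p = 0.912).

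Sin3Bsg1 cells were compared with sgCtrL cells without IFNγ, where 6 of 97 pathway genes were higher (6.19%) and 21 lower (21.6%), against 7.89% and 9.33% of all genes. Leaving out single libraries gave 4 to 10 higher (the 10 without sgCtrL replicate 1 with IFNγ) and 13 to 26 lower (the 13 without sgCtrL replicate 2 without IFNγ), and the 6 libraries of this comparison alone gave 12 and 32. The median log2 difference was -0.052 against -0.0090 over all genes. The haem and iron list had 5 of 8 lower, among them Slc40a1 (104 against 62.7 CPM, log2 -0.73, SE 0.07, edgeR adjusted p = 3.78e-06) and the ferritin heavy chain Fth1 (2688 against 2116 CPM, log2 -0.35, edgeR adjusted p = 0.000809). Cbr3, a carbonyl reductase, was lower by a log2 value of -0.73 (edgeR adjusted p = 3.73e-06). Srxn1, the sulfiredoxin that repairs peroxiredoxins, had -0.56 (edgeR adjusted p = 4.43e-06). Among genes with fewer counts, the glutathione-cleaving enzyme Ggt5 was lower (1.95 against 0.615 CPM, log2 -1.67, edgeR adjusted p = 0.00151) and the aldo-keto reductase Akr1b7 higher (0.231 against 1.14 CPM, log2 2.29, adjusted p = 0.00532). Rises among more abundant genes were led by Gpx3, an extracellular glutathione peroxidase (19.8 CPM ± 0.380 against 32.7 ± 0.527, log2 0.73, SE 0.06, edgeR adjusted p = 5.16e-07), Gstm5 (log2 0.45, adjusted p = 0.000639) and Mgst3 (log2 0.27, adjusted p = 0.0147). The Mgst3 call was lost without sgCtrL replicate 1 or 3 or Sin3Bsg1 replicate 2 (edgeR adjusted p up to 0.0837).

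With IFNγ, 7 of 97 were higher (7.22%) and 15 lower (15.5%) in Sin3Bsg1, against 8.62% and 7.90% of all genes; without the sgCtrL library that stood apart, 14 were higher. The largest changes are given among calls with at least 5 CPM on average and no overlap of groups. Of these calls, Slc40a1 (log2 -0.91, edgeR adjusted p = 7.41e-07), Cbr3 (log2 -0.69, adjusted p = 1.05e-05) and Srxn1 (log2 -0.52, adjusted p = 1.02e-05) were again the largest falls. Gpx3 (log2 0.68, edgeR adjusted p = 1.23e-06), Chac1 (log2 0.67, adjusted p = 0.0122) and Mgst3 (log2 0.52, adjusted p = 8.40e-05) were the largest rises among them. Bach1 was lower in Sin3Bsg1 without IFNγ (101 against 72.2 CPM, log2 -0.48, SE 0.06, edgeR adjusted p = 2.07e-05) and with it (89.6 against 71.3 CPM, log2 -0.33, adjusted p = 0.000795). Keap1 had log2 differences of 0.004 (edgeR adjusted p = 0.974) and 0.04 (adjusted p = 0.721), and Mafg -0.04 (adjusted p = 0.589) and 0.02 (adjusted p = 0.851). Sqstm1 had -0.12 (edgeR adjusted p = 0.0316) without IFNγ, a call lost without any one of 9 of the 12 libraries and in other settings (adjusted p up to 0.143), and -0.01 (adjusted p = 0.900) with it.

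In the untreated experiment, 22 of 98 pathway genes were higher in Sin3Bsg1 (22.4%) and 23 lower (23.5%), against 15.1% and 16% of all genes. Genes that rose in the list of glutathione synthesis, recycling and cystine supply included Chac1, which degrades glutathione, from 4.60 to 11.5 CPM (log2 1.32, SE 0.14, edgeR adjusted p = 1.46e-06), Slc7a11 from 44.7 to 75.7 CPM (log2 0.76, adjusted p = 6.37e-09) and glutathione synthetase Gss from 61.5 to 96.7 CPM (log2 0.65, adjusted p = 5.56e-09). Falls among calls with at least 5 CPM on average and no overlap of groups were led by Gpx3 (14.96 to 6.99 CPM, log2 -1.10, SE 0.11, edgeR adjusted p = 9.13e-07). Next were the mu-class transferase Gstm2 (log2 -1.03, edgeR adjusted p = 8.08e-06) and the exporter Abcg2 (log2 -0.65, adjusted p = 1.99e-08). Bach1 was lower (58.2 against 46.1 CPM, log2 -0.34, edgeR adjusted p = 3.88e-05). Keap1 (log2 -0.10, edgeR adjusted p = 0.0595), Mafg (-0.05, adjusted p = 0.516) and Sqstm1 (-0.04, adjusted p = 0.116) did not pass, Keap1 passing without sgCtrL replicate 2 (adjusted p = 0.0390).

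Across experiments, 10 of the pathway genes passed the threshold in all 3 comparisons of genotype. Of these, 7 were lower in Sin3Bsg1 each time: Bach1, Fth1, Srxn1, Gsr (glutathione reductase), Gstt1, the haem transporter Slc48a1 and the exporter Abcc1, which also carries glutathione conjugates. Mgst3 was higher each time. Gpx3 and Slc7a11 changed direction between experiments, Gpx3 being higher with the guide in the IFNγ experiment and lower in the untreated one, and Slc7a11 the reverse.

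**Figure D5:**
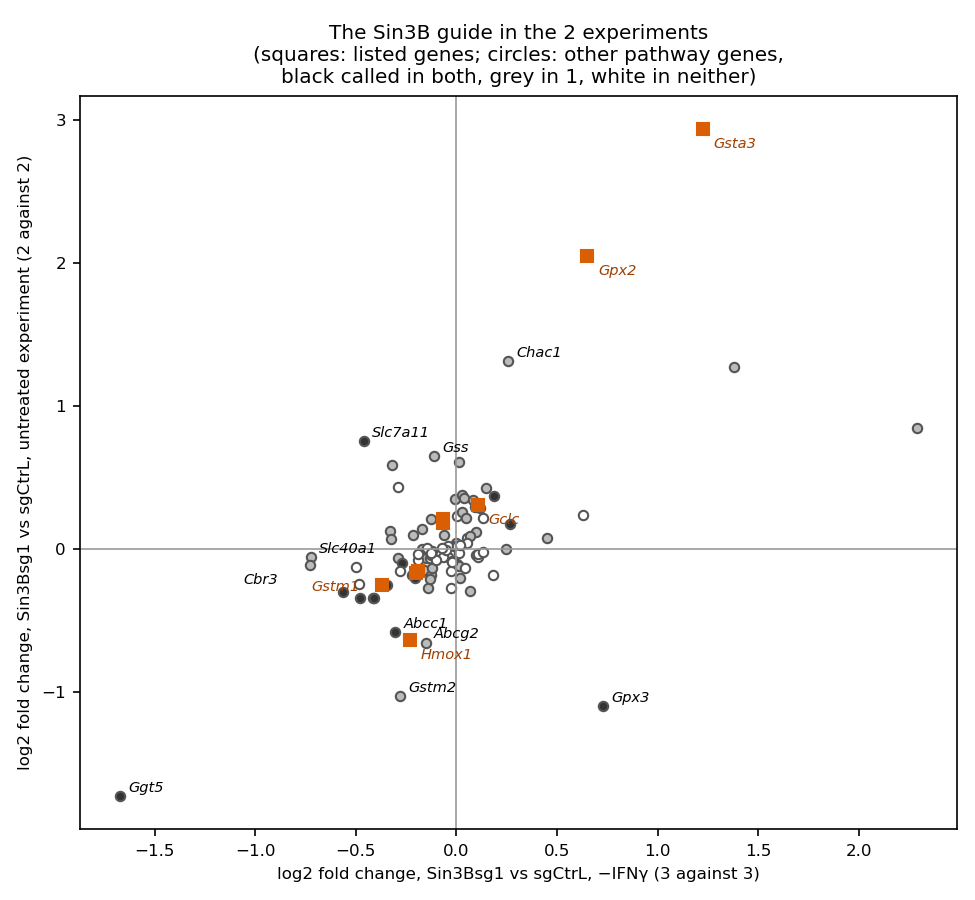
The log2 difference of Sin3Bsg1 against sgCtrL in cells without IFNγ (horizontal axis, 3 against 3 libraries) and in the untreated experiment (vertical axis, 2 against 2); orange squares are the 9 selected genes that have a value in both (all but Nqo1), circles the other pathway genes (black where called in both, grey in 1, white in neither). Gsta3 and Gpx2 lie at the upper right, whereas Gpx3 (0.73 and -1.10) and Slc7a11 (-0.46 and 0.76) lie in opposite corners.

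Markers of cell types also moved with the groups. Of the 7 epithelial markers, 4 were higher in Sin3Bsg1 without IFNγ, 6 with IFNγ and 7 in the untreated experiment, and 0 were lower. Their summed level was 3886 to 3965 TPM in sgCtrL and 4208 to 4311 TPM in Sin3Bsg1 without IFNγ, and 5499 to 5516 against 7267 to 7367 TPM in the untreated experiment. With IFNγ it was 3896 to 4626 TPM in sgCtrL and 5161 to 5353 TPM in Sin3Bsg1. With IFNγ against without, 1 of the 7 was higher and 4 lower in sgCtrL, and 2 higher and 3 lower in Sin3Bsg1. Of 7 fibroblast markers, 2 could be tested in the IFNγ experiment, and both fell with IFNγ in each genotype, with Thy1 at 0 in sgCtrL. Between genotypes these 2 went opposite ways: 1 was higher and 1 lower in Sin3Bsg1, both without and with IFNγ. In the untreated experiment 4 could be tested, of which 2 were lower in Sin3Bsg1 and 0 higher. The sum of the 7 fibroblast markers without IFNγ was 85.3 to 89.3 TPM in sgCtrL and 74.9 to 79.5 TPM in Sin3Bsg1. With IFNγ it was 57.1 to 58.5 and 49.2 to 55.2 TPM. In the untreated experiment it was 31.5 to 31.9 against 10.04 to 11.04 TPM. Of 6 acinar markers 1 could be tested (Cela1), and it fell with IFNγ in both genotypes and was lower in untreated Sin3Bsg1, with Cpa1 and Ptf1a at 0 in every library. The part of these differences in the results above was not tested. In bulk RNA, fewer cells with a transcript and less transcript in each cell cannot be told apart.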

How the data were processed

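The authors deposited 2 tables of estimated counts per gene, 1 for the IFNγ experiment (12 libraries) and 1 for the untreated experiment (4 libraries); part of the values were not whole, and these were rounded. The submitters' processing notes list fastp, HISAT2, StringTie, DESeq2 and mm39 without roles, whereas the study's methods name HISAT2 on mm9 and a counter of uniquely mapped reads, so the build and counter are not settled; strand setting and read length are not given in the sources used here. Columns with the authors' group means were not used. In the untreated table, 324 loci without a gene name (0.615% to 0.677% of counts) were left out. Control columns named for lacZ were taken as the sgCtrL libraries, since no other group remained for them.

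Each table was fitted apart with edgeR 4.0.16 (R 4.3.3; TMM, filterByExpr, quasi-likelihood test, 2-sided, Benjamini-Hochberg over all genes tested, threshold 0.05), without a pairing of replicates; DESeq2 1.42.0 was an alternative. All groups of a table shared the estimate of the spread. CPM used TMM-scaled totals, and TPM the deposited gene lengths. The steps were tested on simulated data. Genes were located by identifier on GRCm39 (GENCODE vM39), and 50-base stretches of their transcripts were compared with those of all other genes. Promoters came from RefSeq on GRCm38.p6.

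The members and lists were chosen with earlier results of these data known. For every comparison, the text names those 3 pathway genes that rose most and those 3 that fell most among calls with at least 5 CPM on average and no overlap of groups, and also Keap1, Bach1, Mafg and Sqstm1; further pathway genes given as examples were chosen after their values were seen. Likeness was computed for Gpx2 alone, since Nqo1, also planned, was below the filter. Of the 5 genes most like Gpx2, 1 is not reported here.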

Additional observations from a re-analysis of the deposited data

Results flagged for a closer look

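The comparison of Sin3Bsg1 with sgCtrL was made in 2 separate experiments without IFNγ. Opposite orders were sought among the selected genes and the pathway genes named by rule for these comparisons, not in the whole pathway. In 5 of them the libraries of the 2 genotypes did not overlap in either experiment and lay in opposite order. The share of all genes with such a reversal is not given. The difference between the experiments was not tested. Gsta4 had log2 differences of -0.068 (SE 0.05) without IFNγ and 0.22 (SE 0.03) in the untreated experiment. Nfe2l2 had -0.068 (SE 0.06) and 0.19 (SE 0.03). For both genes the value without IFNγ was close in size to its SE. Gss had -0.11 and 0.65, Slc7a11 had -0.46 and 0.76, and Gpx3 had 0.73 and -1.10. The experiments also differed in the levels of these genes in control cells, for example 100.0 CPM against 44.7 CPM of Slc7a11 in sgCtrL. Groups of 2 or 3 libraries were too small to screen the values of a single gene for outliers, whereas whole libraries were compared above.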

How the results depend on the processing

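Of 945 values of the 10 genes recomputed under other settings, 910 stayed within the spread between replicates, and none past the threshold turned its direction. The largest shift from scaling came with library totals alone, which lowered fold changes with IFNγ by about the shift of all genes' median. That median went from -0.0006 to -0.069 in sgCtrL and from 0.0052 to -0.081 in Sin3Bsg1. The counts of pathway genes with Sin3Bsg1 against sgCtrL moved with the libraries used. Without IFNγ, with the 6 libraries of that comparison alone, 12 were higher and 32 lower in place of 6 and 21; leaving out single libraries gave 4 to 10 higher and 13 to 26 lower. The 10 came without sgCtrL replicate 1 with IFNγ and the 13 without sgCtrL replicate 2 without IFNγ. With IFNγ, leaving out single libraries gave 5 to 14 higher in place of 7, the 14 without sgCtrL replicate 1. The cause was not tested. The other counts of pathway genes stayed within 1.5 times of those reported under every setting run. Over all genes, IFNγ in sgCtrL gave 2343 higher and 2164 lower calls and 1644 and 3093 with library totals alone; for Sin3Bsg1 against sgCtrL, the 6 libraries of a comparison alone gave 1916 and 2080 without IFNγ in place of 1177 and 1391, and 759 and 741 with it in place of 1286 and 1178. The interaction gave 12 and 5, 19 and 13 with DESeq2, 55 and 55 with no filter on low counts, 7 and 7 with at least 10 counts in every library, and 1 to 25 and 0 to 8 with single libraries left out, the most without sgCtrL replicate 1 with IFNγ. Of 932 values of the named pathway genes, 27 lost their call and 1 gained one, each named in the report. With single libraries left out, an arm of the untreated experiment had 1 library, which was assumed to vary like the others.

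In the IFNγ experiment, deviations of same-numbered libraries correlated between -0.20 and 0.23, and those of other pairs between -0.25 and 0.24. Replicate 2 gave 0.19, 0.20 and 0.23 among sgCtrL without IFNγ and both groups with it. Against Sin3Bsg1 without IFNγ it gave -0.10, -0.20 and -0.03. A pairing of part of the libraries was not tested further. With 2 libraries per group, the untreated values (-0.02 and 0.02) mirror each other and cannot show a pairing. With the replicate block, 15 pathway genes rose and 31 fell with IFNγ in sgCtrL, in place of 16 and 30, and 6 were higher and 20 lower in Sin3Bsg1 without IFNγ. Depth limits Nqo1 and, in sgCtrL, Gsta3.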
